A study of Homo sapiens with 12 samples.

Results

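The 10 genes described here are the NF-κB subunits and feedback genes NFKB1, NFKB2, RELA, RELB, REL, NFKBIA, NFKBIE, NFKBIZ, TNFAIP3 and BIRC3, chosen by name from the 58288 genes of an RNA-Seq table. FaDu is a human head and neck squamous cell carcinoma (HNSCC) line. RNA-Seq was performed in FaDu cells with STING (WT) or with STING knocked out (KO), either unirradiated (0Gy) or after 4 daily fractions of 2 Gy (RT), with 3 libraries in each of the 4 groups. The design asked how STING KO changed baseline and radiation-induced expression. All groups carried Cas9 and a guide RNA from a vector selected with puromycin, which was a non-targeting guide (NT gRNA 2) in WT cells and a STING guide (STING gRNA 2) in KO cells. The sources used here do not describe the KO cells as a single clone, do not give the time between the last fraction and RNA collection, and do not say whether the 3 libraries of a group came from separate cultures. P-values therefore measure the spread between these libraries, which may be technical. Levels are transcripts per 1000000 (TPM), which are scaled for transcript length, so that levels of different genes can be set side by side.

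NF-κB is a family of dimeric transcription factors. In resting cells, most dimers are held in the cytoplasm by inhibitor (IκB) proteins. In the canonical pathway, receptors for TNF, IL-1 or microbial products activate the IκB kinase complex, IκBα is degraded, and dimers of RELA or REL with p50 (made from NFKB1) enter the nucleus. In the non-canonical pathway, the kinase NIK drives the cleavage of the NFKB2 protein p100 to p52, which pairs with RELB. Several of the genes that NF-κB turns on encode its own subunits and inhibitors and so feed back on the pathway. STING, a sensor adaptor for cyclic dinucleotides, activates TBK1 and IRF3 and can also activate NF-κB. Transcript levels do not report where the NF-κB proteins are in the cell or whether they bind DNA.

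The targeted gene, TMEM173 (the symbol for STING in the table), was measured first as a check of the labels. Its level was 21.7, 23.5 and 21.1 TPM in the 3 unirradiated WT libraries and 26.1, 21.4 and 21.7 TPM in the irradiated WT libraries. In KO cells it was 5.18, 5.29 and 6.96 TPM unirradiated and 6.35, 7.41 and 7.08 TPM irradiated. Every KO library lay below every WT library, and transcript remained in all 6 KO libraries. Squamous epithelial markers (KRT5, KRT14, KRT6A, TP63, CDH1, EPCAM, SFN) summed to 3686 to 6603 TPM per library. Of the leukocyte markers, CD3E was at 0 in 11 of 12 libraries and PTPRC was at most 0.0894 TPM, while CD68 passed the filter on low values and ranged from 14.7 to 31.1 TPM. Of the 2 endothelial markers, PECAM1 was at most 0.0989 TPM and VWF was at 2.60 to 4.49 TPM. Of the 4 fibroblast markers, DCN was at 0 in 11 of 12 libraries and COL1A2 in 10, PDGFRB was at most 0.0882 TPM, and COL1A1 was at 6.34 to 9.23 TPM. The libraries detected 14860 to 15292 genes at 1 TPM or more. Read totals were not given with the TPM values, so that the depth is unknown.

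Because promoters of feedback genes commonly hold NF-κB binding (κB) sites, the RefSeq promoter windows (GRCh38.p14, 250 bases before to 50 bases after each transcript start) of the 10 genes were searched on both strands for the κB consensus. Windows were found for 8 of the 10 genes, 13 windows in all, and none for RELB and NFKBIE. A match occurred in 9 windows of 7 genes (NFKB1, NFKB2, REL, NFKBIA, NFKBIZ, TNFAIP3, BIRC3), against 11.3% of all 35116 windows. The matches of TNFAIP3 and NFKB2 are shown because these 2 genes rose after radiation in both WT and KO cells. Those of NFKB1 and NFKBIA are shown as examples of genes that hold a match and did not pass the test in any comparison. REL, NFKBIZ and BIRC3 also hold a match and passed in no comparison, and their matches are not shown. Starts are RefSeq transcript starts, and the GENCODE gene positions given later for TNFAIP3 and NFKB2 begin upstream of their matches. The match is in capitals, and each line reads 5′ to 3′ on the strand of the gene.
TNFAIP3, chr6:137867184-137867209 (+), 67 bases before the start: gtgactttGGAAAGTCCCgtggaaat
TNFAIP3, chr6:137867196-137867221 (+), 55 bases before the start: agtcccgtGGAAATCCCCgggcctac
NFKB2, chr10:102394463-102394489 (+), 107 bases before the start: aacgtcatGGGAATTCCCCcctccggg
NFKB2, chr10:102394492-102394517 (+), 78 bases before the same start: gccgagaaGGGGCTTTCCcggccctg
NFKB2, chr10:102395521-102395546 (+), 176 bases before a second start: cccccaccGGGGCTTCCCggattctc
NFKB2, chr10:102395676-102395701 (+), 21 bases before the second start: gtattttcGGGACTTTCCtaagctgc
NFKB1, chr4:102501302-102501327 (+), 49 bases before the start: acgtcagtGGGAATTTCCagccagga
NFKBIA, chr14:35404813-35404838 (−), 81 bases before the start: actggcttGGAAATTCCCcgagcctg
The TNFAIP3 matches are separated by 2 bases and share flanking bases, and NFKB2 holds a pair of matches at each of 2 starts. The core letters of an interferon regulatory factor site (AANNGAAA, both strands) were found in 5 of the 13 windows, against 22.8% of all windows. These windows belong to NFKB2, RELA, NFKBIZ, TNFAIP3 and BIRC3, 5 of the 8 genes. The core of a STAT site (TTCNNNGAA) was found in 1 of the 13 windows, a window of RELA, against 7.66% of all windows. A match is a run of letters in this window and was not tested as a bound site.

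The levels of the 10 genes spanned from abundant to low. RELA, which encodes the p65 transactivating subunit, had the highest median, 223 TPM over the 12 libraries, at the 95.8th percentile of the medians of the 15973 genes tested. NFKBIA, which encodes IκBα, followed with 125 TPM, then NFKB1 (p105/p50) with 76.0 TPM and NFKB2 (p100/p52) with 33.3 TPM. TNFAIP3, which encodes the ubiquitin-editing enzyme A20, had a median of 23.2 TPM. RELB and REL, the other two transactivating subunits, had medians of 14.6 and 12.9 TPM. The lowest were NFKBIZ (IκBζ, a nuclear IκB) with 9.60 TPM, NFKBIE (IκBε) with 6.87 TPM and BIRC3 (the ubiquitin ligase cIAP2) with 6.58 TPM. Neighbors in this order had overlapping ranges over the 12 libraries, with the exception of NFKBIA above NFKB1 and NFKB1 above NFKB2. RELA made up 60.1% ± 5.24 (SD, n = 12) of the summed TPM of the 5 subunits, NFKB1 22.1% ± 3.14, NFKB2 9.69% ± 1.53, RELB 4.18% ± 0.852 and REL 3.90% ± 1.03. All 10 genes passed the filter of at least 1 TPM in 3 or more libraries.

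**Figure D1:**
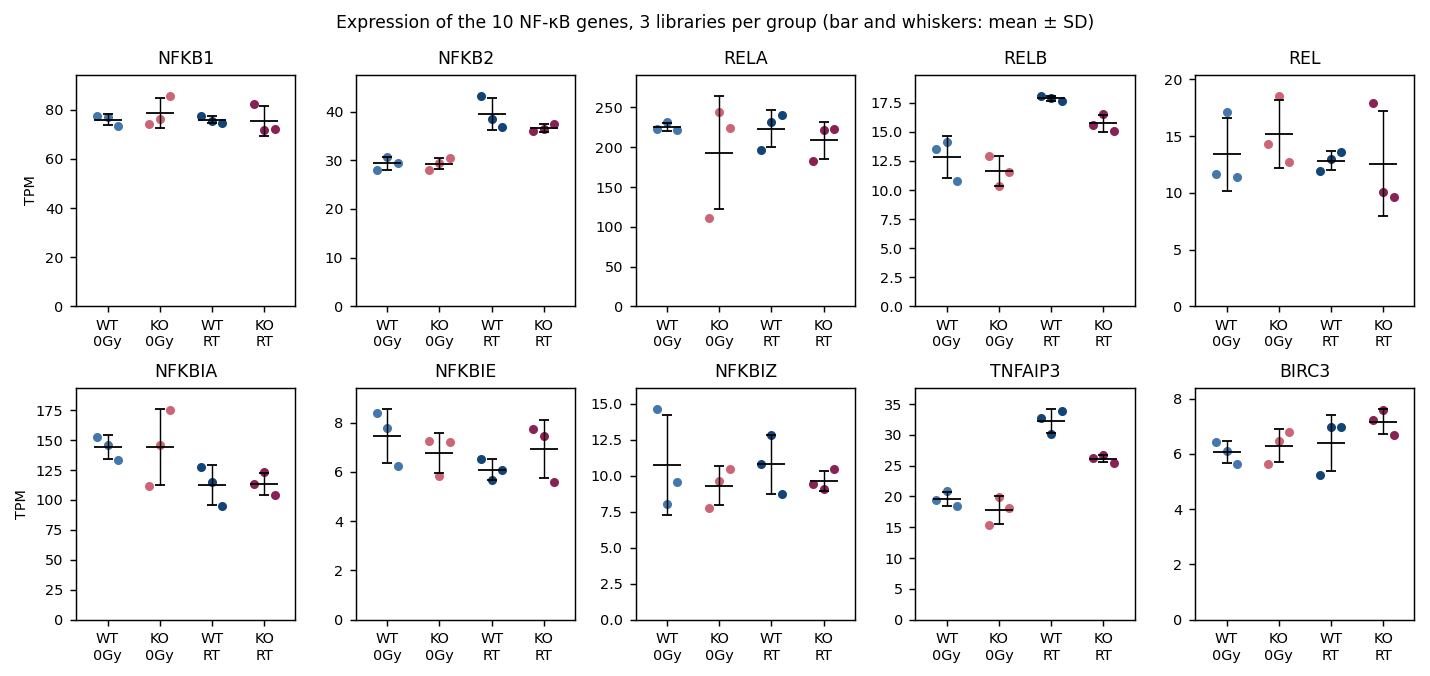
TPM of the 10 genes in each library (points), by group, with the group mean (bar) and SD (whiskers, n = 3), each axis starting at 0. TNFAIP3, NFKB2 and RELB sit higher in the irradiated groups of both genotypes, and RELA is at 112 TPM in a single unirradiated KO library.

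Radiation in WT cells was followed by higher transcript levels of 3 of the 10 genes, TNFAIP3, NFKB2 and RELB, and the remaining 7 did not pass the test. The 3 genes that rose encode the feedback enzyme A20 and both partners of the non-canonical dimer, p100/p52 and RELB. Among all genes tested, 3.74% passed in this comparison and 2.24% were called higher. In these bulk libraries, a change in the share of cells that express a gene cannot be told apart from a change in RNA per cell.

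TNFAIP3 (chr6:137867188-137883312, +, GRCh38, GENCODE 29, as for the positions that follow) showed the greatest change of the 10. Its level was 19.4, 20.9 and 18.5 TPM in the unirradiated WT libraries and 32.7, 30.2 and 34.0 TPM in the irradiated WT libraries. The 2 groups did not overlap, and the ratio of their means was 1.65. On the log2(TPM + 1) scale, the difference was 0.69 ± 0.088 (SE), with limma adjusted P = 0.00218. A gene on the opposite strand, listed as AL357060.2, overlaps TNFAIP3 over 1046 bases and was low but moved in the same direction, from 0.595, 0.858 and 0.611 TPM to 3.28, 2.10 and 2.29 TPM. Its difference was 1.06 ± 0.20 (SE, limma adjusted P = 0.0173). The strand setting of the quantification is not given in the sources used here, and reads of the overlapping genes may not have been told apart.

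NFKB2 (chr10:102394110-102402529, +) rose from 28.1, 30.7 and 29.4 TPM to 43.3, 38.4 and 36.8 TPM in WT cells, without overlap. The difference was 0.41 ± 0.065 (SE, limma adjusted P = 0.00791), a ratio of 1.34. RELB (chr19:45001430-45038198, +) rose from 13.6, 14.1 and 10.8 TPM to 18.1, 17.9 and 17.7 TPM, again without overlap, and by 0.46 ± 0.10 (SE, limma adjusted P = 0.0362), a ratio of 1.40. The call for RELB did not hold when unirradiated WT replicate 1 (adjusted P = 0.0691) or replicate 3 (0.0804) or any one of the irradiated WT replicates (0.112, 0.102 and 0.0891 without replicates 1, 2 and 3) was left out.

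NFKBIA (chr14:35401511-35404749, −), the canonical feedback inhibitor, was at 153, 146 and 134 TPM in unirradiated and 128, 115 and 94.7 TPM in irradiated WT cells. All irradiated libraries were lower, but the difference of −0.36 ± 0.15 (SE) did not pass (limma adjusted P = 0.242, unadjusted P = 0.0384). The groups of these 4 genes (TNFAIP3, NFKB2, RELB and NFKBIA) did not overlap, against 24.8% of all genes tested. The canonical subunit genes did not pass. RELA (chr11:65653596-65663094, −) was at 223, 232 and 221 TPM before and 197, 232 and 241 TPM after radiation, and NFKB1 (chr4:102501329-102617302, +) at 77.6, 77.1 and 73.4 TPM before and 77.5, 75.5 and 74.8 TPM after. The 95% interval of the NFKB1 difference, −0.15 to 0.15, was narrow, whereas that of RELA ran from −0.55 to 0.51. NFKBIE was at 8.37, 7.76 and 6.25 TPM before and 6.52, 5.66 and 6.05 TPM after radiation, and NFKBIZ at 14.6, 8.03 and 9.53 TPM before and 10.8, 12.8 and 8.71 TPM after. NFKBIE, NFKBIZ and BIRC3 had differences of −0.25, 0.03 and 0.06, with intervals of −0.55 to 0.05, −0.41 to 0.47 and −0.18 to 0.30, and none passed (limma adjusted P = 0.369 to 0.961). Ranges of some markers also did not overlap between these groups. CD68 was at 16.3 to 22.2 TPM before and 24.1 to 31.1 TPM after radiation, and the endothelial gene VWF at 2.60 to 3.00 TPM and 3.28 to 3.58 TPM. Neither passed (limma adjusted P = 0.138 and 0.228). The summed squamous markers were at 4239 to 4718 TPM before and 3686 to 4180 TPM after. KRT5 made up most of this sum, with means of 2587 and 2158 TPM. Of the 7 squamous markers, 4 had differences above 0 and 3 below. EPCAM alone passed, higher after radiation (0.15, limma adjusted P = 0.0461). The part of these markers in the result was not tested.

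**Figure D2:**
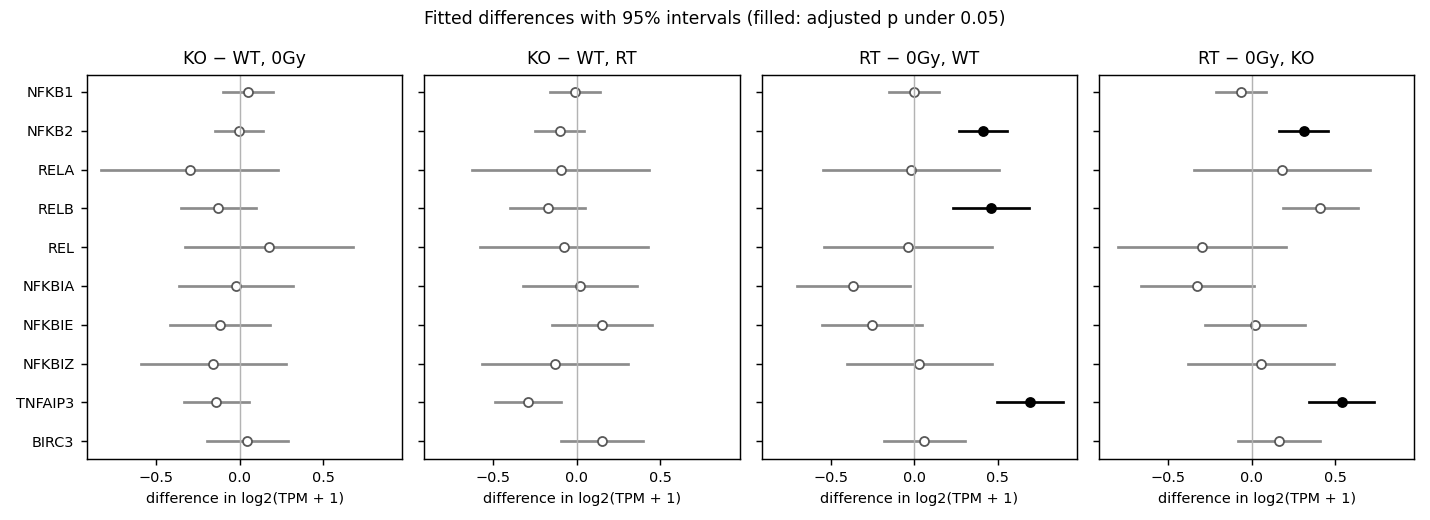
Fitted differences in log2(TPM + 1) for each gene (rows) in the 4 comparisons (panels), with 95% intervals as lines and filled points where the adjusted P was below 0.05. Filled points appear only in the radiation panels, for TNFAIP3, NFKB2 and RELB in WT and for TNFAIP3 and NFKB2 in KO.

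Radiation in KO cells was followed by higher levels of TNFAIP3 and NFKB2, against 3.69% of all genes called and 2.0% called higher. TNFAIP3 was at 15.3, 19.8 and 18.1 TPM in unirradiated and 26.3, 26.7 and 25.5 TPM in irradiated KO cells. The irradiated libraries were all above the unirradiated ones, and the difference was 0.54 ± 0.088 (SE, limma adjusted P = 0.00940), a ratio of 1.47. The overlapping AL357060.2 was at 1.81, 0.995 and 1.39 TPM before and 2.20, 4.08 and 3.31 TPM after radiation.

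NFKB2 was at 28.1, 29.5 and 30.4 TPM in unirradiated and 35.9, 36.5 and 37.5 TPM in irradiated KO cells, a difference of 0.31 ± 0.065 (SE, limma adjusted P = 0.0292) and a ratio of 1.25. This call did not hold when any one of the 6 KO libraries was left out (adjusted P = 0.0641 to 0.0950). RELB was at 12.9, 10.4 and 11.5 TPM before and 15.6, 16.5 and 15.0 TPM after radiation, also without overlap, and its difference of 0.41 ± 0.10 (SE) stayed just outside the threshold (limma adjusted P = 0.0554). These were the 3 genes whose groups did not overlap in KO cells, against 24.3% of all genes tested.

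NFKBIA was at 112, 146 and 175 TPM in unirradiated and 113, 123 and 104 TPM in irradiated KO cells. These groups overlapped, and the difference was −0.32 (95% interval −0.67 to 0.02, limma adjusted P = 0.299). The remaining 6 genes had differences between −0.29 (REL) and 0.18 (RELA), with limma adjusted P = 0.483 to 0.958, and that of RELA was −0.17 (adjusted P = 0.473) without unirradiated KO replicate 1. BIRC3 (chr11:102317450-102339403, +) was at 5.64, 6.48 and 6.78 TPM before and 7.24, 7.59 and 6.68 TPM after radiation. In KO cells CD68 was at 14.7 to 24.7 TPM before and 17.2 to 24.9 TPM after radiation, and VWF at 3.17 to 3.55 TPM and 4.05 to 4.49 TPM. The summed squamous markers were at 4932 to 6603 TPM before and 4348 to 5243 TPM after. Of the 7 squamous markers, 3 had differences above 0 and 4 below. EPCAM passed as higher (0.18, limma adjusted P = 0.0226) and SFN as lower (−0.28, limma adjusted P = 0.0105). The part of these markers was likewise not tested.

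The radiation effects of WT and KO cells were then compared directly as an interaction. None of the 10 genes passed (limma, lowest adjusted P = 0.860) and none had an unadjusted P below 0.05, while 0.0188% of all genes tested passed. Of 19 interferon-stimulated genes, 0 passed either, although all 19 had differences below 0, with a median of −0.52. A gene that did not pass may therefore still respond differently in the 2 genotypes. For TNFAIP3 the KO effect minus the WT effect was −0.15, with a 95% interval of −0.43 to 0.12. For NFKB2 it was −0.10 (−0.31 to 0.10), and for RELB −0.05 (−0.37 to 0.27). The rise of RELB passed in WT cells and missed the threshold in KO cells, but a difference between the radiation effects was not shown. These intervals leave room for a KO effect on TNFAIP3 that is weaker by up to 0.43 or stronger by up to 0.12 on the log2 scale. The widest were those of RELA (−0.55 to 0.95) and REL (−0.97 to 0.45), and the RELA difference turned from 0.20 to −0.15 (adjusted P = 0.924) without unirradiated KO replicate 1.

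**Figure D3:**
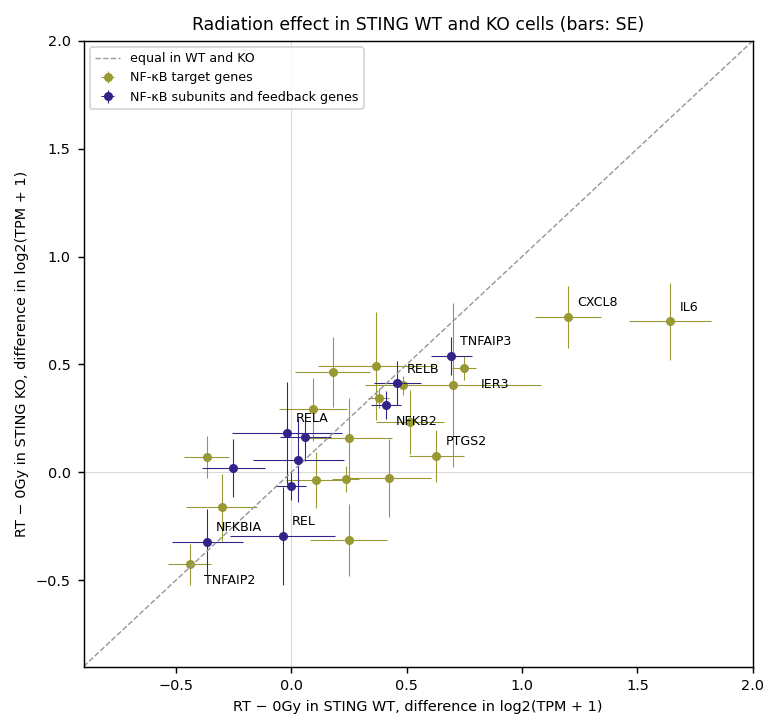
Difference between irradiated and unirradiated cells in log2(TPM + 1) in WT (x axis) and KO (y axis), with SE bars, for the 10 genes and for 19 tested NF-κB target genes, the dashed line marking equal values. TNFAIP3, NFKB2 and RELB lie near the line and just below it. Of the labeled target genes, IL6, PTGS2 and CXCL8 lie farthest below it. None of the 19 target genes passed the interaction test.

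STING KO did not change any of the 10 genes past the threshold in unirradiated cells. The lowest limma adjusted P was 0.530 (TNFAIP3), none had an unadjusted P below 0.05, and the groups overlapped for all 10, against 1.73% of all genes called, 1.26% called lower and 20.6% without overlap. The median difference was −0.07 against −0.02 over all genes tested. In the same comparison, TMEM173 fell by 1.77 (limma adjusted P = 1.16e-05), and 19 of 19 interferon-stimulated genes were lower in KO, with a median difference of −2.72. OASL, an interferon-induced antiviral gene, had the greatest difference, −6.16. NFKBIE (chr6:44258166-44265788, −) was at 7.26, 5.85 and 7.23 TPM in unirradiated KO libraries, and NFKBIZ (chr3:101827991-101861022, +) at 7.79, 9.66 and 10.4 TPM, and both overlapped the unirradiated WT values given above. NFKB1 and NFKB2 had the narrowest intervals of the 10 genes, −0.10 to 0.20 and −0.15 to 0.14. Of the 7 squamous markers, 3 had differences above 0 and 4 below. KRT14 alone passed, higher in KO (0.24, limma adjusted P = 0.0217). KRT5, which made up most of the summed markers, was also higher in KO without overlap, with means of 3790 and 2587 TPM. Its difference of 0.52 did not pass (limma adjusted P = 0.162). The part of the markers was not tested here either.

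RELA was the exception in its spread. It was at 112, 244 and 224 TPM in the 3 unirradiated KO libraries and between 182 and 241 TPM in the 9 libraries of the other groups. The single low library, replicate 1, set the difference of −0.30 (95% interval −0.83 to 0.23), which was 0.05 without it (adjusted P = 0.883). In that library RELA made up 46.2% of the summed subunit TPM, against 54.6% to 64.4% in the others. Replicate 1 was also the lowest of the 3 for NFKB1, NFKB2, NFKBIA, NFKBIZ, TNFAIP3 and BIRC3, and the highest for RELB and NFKBIE. It had the fewest genes at 1 TPM or more, 14860, followed by another unirradiated KO library with 14916.

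In irradiated cells, STING KO again changed none of the 10 genes past the threshold, against 3.59% of all genes called and 2.66% called lower. TNFAIP3 was lower in all 3 irradiated KO libraries than in any irradiated WT library, with 26.3, 26.7 and 25.5 TPM against 32.7, 30.2 and 34.0 TPM. Its difference of −0.29 ± 0.088 (SE) had an unadjusted P of 0.00737, the only one of the 10 below 0.05, and a limma adjusted P = 0.108. RELB was the other gene without overlap, with 15.6, 16.5 and 15.0 TPM in KO against 18.1, 17.9 and 17.7 TPM in WT, a difference of −0.18 ± 0.10 (SE, limma adjusted P = 0.422). Groups without overlap were found for 24.1% of all genes tested. NFKB2 had a difference of −0.10 (−0.25 to 0.04), and the ranges of the 2 genotypes met, 35.9 to 37.5 TPM in KO and 36.8 to 43.3 TPM in WT. NFKBIA, NFKB1 and BIRC3 had differences of 0.02, −0.01 and 0.15. The comparisons between genotypes and those between doses share libraries, so their values are not independent of each other. The 19 interferon-stimulated genes were all lower in irradiated KO cells, with a median difference of −3.20. Of the 7 squamous markers, 5 had differences above 0 and 2 below. SFN alone passed, lower in KO (−0.21, limma adjusted P = 0.0378). KRT5 was higher in KO without overlap, with means of 3136 and 2158 TPM, and its difference of 0.54 did not pass (limma adjusted P = 0.107). CD68 had a difference of −0.51 that did not pass (limma adjusted P = 0.216). The part of these markers was not tested.

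The values of REL, which encodes c-Rel, are uncertain. In GENCODE 29, REL lies on chr2:60881521-60931610 (+), and the last 5702 bases of the gene coincide with AC010733.2, a noncoding transcript on the same strand. The deposited values carry another version of the REL gene model, whose 3′ end was not checked. AC010733.2 was at 17.5, 4.77 and 18.0 TPM in unirradiated WT, 1.56, 0.489 and 18.3 TPM in unirradiated KO, 16.8, 19.9 and 1.41 TPM in irradiated WT and 4.96, 19.2 and 18.2 TPM in irradiated KO libraries. Every group thus held libraries far apart on this scale. REL itself was at 11.7, 17.1 and 11.4 TPM in unirradiated WT, 14.3, 18.6 and 12.8 TPM in unirradiated KO, 11.9, 13.0 and 13.6 TPM in irradiated WT and 17.9, 10.1 and 9.67 TPM in irradiated KO libraries. In each of the 4 groups, the library with the highest REL had the lowest AC010733.2. When both were summed, the KO difference in unirradiated cells turned from 0.18 to −0.32, and the radiation difference in KO cells from −0.29 to 0.31. None of these 4 values passed the test (limma adjusted P = 0.550 to 0.786). No direction can be given for REL.

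**Figure D4:**
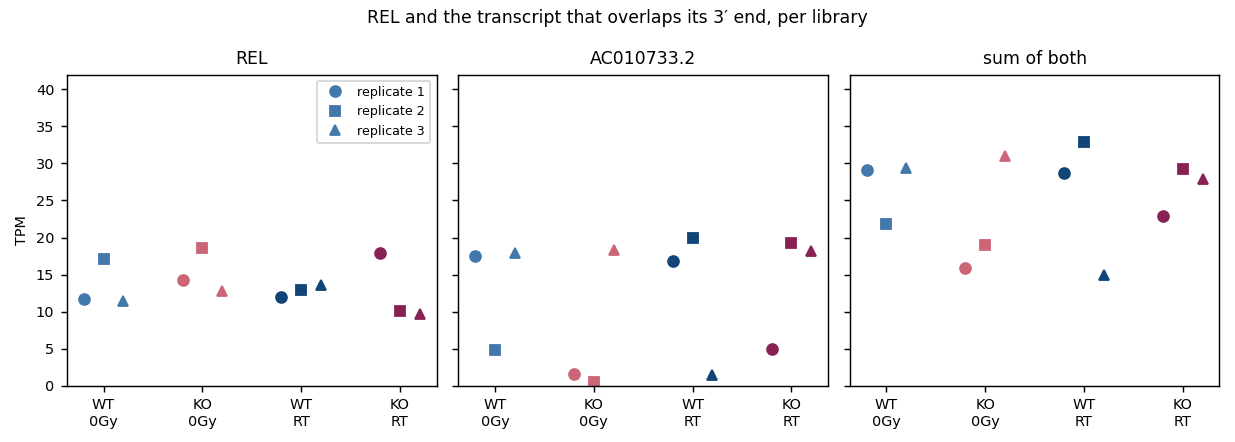
TPM of REL (left), of AC010733.2, the transcript within its 3′ end in GENCODE 29 (middle), and of both summed (right), per library, with marker shape for the replicate number. AC010733.2 spans 0.489 to 19.9 TPM, and in each of the 4 groups the library with the lowest AC010733.2 has the highest REL.

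The remaining pathway was examined in lists ordered by role, 86 genes of which 70 were tested. The lists were chosen with earlier results of these data known, so their counts and medians are a description and not independent support. None of the 10 kinases, 14 adaptors and ubiquitin ligases, 10 tested receptors and 3 other IκB genes passed in any comparison. The target genes, the longest of the lists, had the most calls. In WT cells 6 of 19 tested target genes rose after radiation and 1 fell, against 2.24% of all genes called higher and 3.74% called in either direction, and with a median difference over the list of 0.37 against 0.02 over all genes. With no filter on low values, the number of target genes called went from 7 to 5, and that over all pathway lists in this comparison from 10 to 6. IL6, a cytokine gene, rose from 1.54, 1.79 and 2.00 TPM to 7.03, 8.21 and 7.74 TPM, a difference of 1.64 ± 0.18 (SE, limma adjusted P = 0.00106). CXCL8, a neutrophil chemokine gene, rose by 1.20, the immediate early gene IER3 by 0.75 and PTGS2 (cyclooxygenase 2) by 0.63. To complete the count, 3 genes beyond the 4 with the greatest differences are named, chosen after their values were seen. PLAU (urokinase) rose by 0.48 and ICAM1, an adhesion molecule, by 0.38, while TNFAIP2 fell by 0.44.

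In KO cells 4 target genes rose after radiation, CXCL8 (0.72), IER3 (0.48), PLAU (0.40) and ICAM1 (0.35, again named to complete the count), and TNFAIP2 fell by 0.43, against 2.0% of all genes called higher and 3.69% called in either direction, with a median of 0.23 over the list against 0.02 over all genes. IL6 went from 0.881, 2.38 and 1.46 TPM to 3.03, 3.19 and 2.97 TPM, and its difference of 0.70 did not pass (limma adjusted P = 0.0596). The difference between the IL6 effects of KO and WT cells, −0.94 (95% interval −1.50 to −0.39), did not pass either (limma adjusted P = 0.621, unadjusted P = 0.00348). Between genotypes, no target gene passed in unirradiated cells, against 1.73% of all genes called. In irradiated cells IL6 and PTGS2 were lower in KO than in WT, against 2.66% of all genes called lower. Their differences were −1.09 and −0.55 (limma adjusted P = 0.00755 and 0.0331). These 2 calls became 1 with no filter on low values and 0 when a mean of at least 5 TPM was required.

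Of 4 tested ligand genes, 3 rose after radiation in WT cells, against 2.24% of all genes called higher. They were LTB (0.75, limma adjusted P = 0.0477), IL1B (0.31, 0.0189) and IL1A (0.26, 0.0439). LTB encodes a subunit of a ligand of the non-canonical pathway. LTA, which encodes the other subunit, did not pass the filter on low values, with group means of 0.0266 to 0.121 TPM. With no filter on low values, 1 ligand gene was called in this comparison. IL1B also rose in KO cells (0.41) and was lower in unirradiated KO than WT cells (−0.30, limma adjusted P = 0.0274). LTB was at 4.20, 3.05 and 3.04 TPM before and 7.51, 6.25 and 5.55 TPM after radiation in WT cells, and at 3.44, 4.02 and 2.81 TPM before and 7.07, 4.30 and 6.23 TPM after in KO cells, where its difference of 0.62 did not pass (limma adjusted P = 0.0907). Among 10 other negative regulators, N4BP1 alone passed, lower in KO than in WT cells, with differences of −0.43 unirradiated and −0.57 irradiated (limma adjusted P = 0.00422 and 0.000333). Of all genes tested, 1.26% were called lower in the unirradiated and 2.66% in the irradiated comparison. N4BP1 was at 33.2, 37.8 and 34.3 TPM in unirradiated WT and 26.3, 25.1 and 26.2 TPM in unirradiated KO cells, without overlap.

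**Figure D5:**
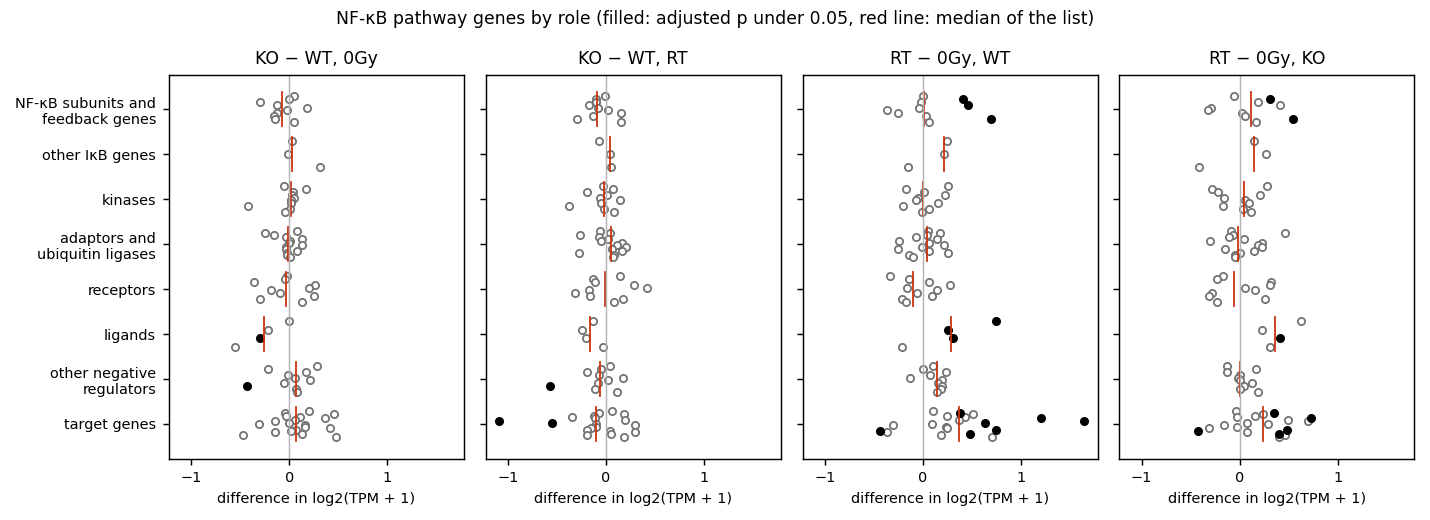
Difference in log2(TPM + 1) of each tested gene (points, filled where the adjusted P was below 0.05), by role in the pathway (rows) and comparison (panels), with the median of each list as a red line. In the radiation panels the filled points lie among the NF-κB subunits and feedback genes, the ligands and the target genes.

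The genes whose profile over the 12 libraries was most like that of each of the 3 that rose were named by Pearson correlation of log2(TPM + 1), as a description, since the libraries fall in 4 groups. For TNFAIP3 they were TRIM8 (r = 0.979), ELL2 (0.969) and HBEGF (0.965). HBEGF had group means of 7.71 TPM in unirradiated WT, 6.60 TPM in unirradiated KO, 12.8 TPM in irradiated WT and 10.4 TPM in irradiated KO cells. For RELB they were RAC2 (0.973), PLEK2 (0.963) and ABLIM1 (0.958), and for NFKB2 they were CDC42EP3 (0.973), PARM1 (0.967) and PFDN4 (0.959). As the choice by likeness implies, all 9 genes had higher group means after radiation in both genotypes.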

How the data were processed

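TPM values per gene were deposited by the authors, who sequenced poly(A) RNA with paired reads. HISAT2, StringTie, DESeq2 and hg38 are named in the submitters' processing notes, without versions or roles. TPM fixes each library's total, so values are relative within a library. Columns were matched to samples by name: one column prefix is the study's short name for the non-targeting guide and was taken as WT, and the only other prefix, which the sources used here do not explain, was taken as KO by elimination. From the TPM values, genes with at least 1 TPM in 3 of 12 libraries were fitted with limma 3.58.1 (R 4.3.3) on log2(TPM + 1), with 4 group means, 8 residual degrees of freedom and a variance trend. P-values were two-sided and adjusted by Benjamini-Hochberg over all 15973 genes tested, with a threshold of 0.05. Differences on this scale understate the change of low genes. The fit was tested on simulated data. Of 58288 identifiers, 58025 matched GENCODE 29 without version numbers, which gave the positions. The genes and lists were chosen with earlier results of these data known. Named genes were TMEM173, the 10 genes, at most 4 called genes per list and comparison (exceeded for the target genes after radiation, to complete small counts), and the 3 most correlated genes of each of the 3 most changed members. Alternatives were another pseudocount, filter, scaling or variance prior, a replicate block, fewer libraries in the fit and each library left out. Summing REL with AC010733.2 was chosen after seeing the data.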

Additional observations from a re-analysis of the deposited data

How the results depend on the processing

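Each of the 50 fitted values of the 10 genes was compared with 14 to 20 alternatives, 755 alternative values in all. Of these, 682 stayed on the same side of the threshold and in the same direction, 18 lost a call and 1 gained one. The other 54 changed the sign of a value that was not called. The genes share the alternative fits, so the 755 values are not separate checks. No called value changed sign. The count of genes called after radiation in WT cells (3) was 1 when only the 6 libraries compared were fitted, where NFKB2 (adjusted P = 0.0779) and RELB (0.119) were lost, and 2 to 3 with each library left out. In KO cells the count (2) was 0 with only the 6 libraries fitted, where TNFAIP3 had an adjusted P of 0.0757 and NFKB2 of 0.0685, and 1 with any of the 6 libraries left out. TNFAIP3 in WT cells kept its call in all 14 alternatives. RELB in WT cells lost it in 8 of 14, among them the fit with no filter on low values (adjusted P = 0.0656), and RELB in KO cells passed when a mean of at least 5 TPM was required (0.0453). The cause was not tested. With no filter, the pathway lists held 6 calls after radiation in WT cells in place of 10. A fit that leaves a group with 2 libraries assumes that they vary like the other groups.

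Same-numbered libraries did not deviate together (correlations of −0.0602 to 0.0641), so the replicate numbers were not taken as pairs. With the replicate number as a block, the count in KO cells was 1, with NFKB2 at an adjusted P of 0.0693, and RELB in WT cells was at 0.0586. The block changed no other call of the 10 genes.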
